A study of Mus musculus with 10 samples.

Results

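The 10 genes followed here make, load and use microRNAs (miRNAs), and their mRNA was measured in adipocyte precursors (APs) with and without interleukin-4 (IL-4). They are the 2 Microprocessor subunits Drosha and Dgcr8, the exporter Xpo5, the dicing pair Dicer1 and Tarbp2, the Argonautes Ago1, Ago2, Ago3 and Ago4, and the GW182 protein gene Tnrc6a. They were taken by gene symbol from the mRNA tables, where they make up 10 of the 18384 genes listed. All 10 were listed in every mRNA library, and all 10 passed the filter on low counts that left 14009 genes to test.

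The cells were APs from subcutaneous white adipose tissue (scWAT) of C57BL/6J mice, kept undifferentiated in culture. They had been isolated on magnetic columns by removal of CD45-positive and CD31-positive cells and then by selection for SCA-1, and both groups were grown in serum-containing medium. Control APs received no cytokine, and treated APs received IL-4 from one day after seeding. Polyadenylated RNA was sequenced from 3 control libraries (control 1, 2 and 3) and 3 IL-4 libraries (IL-4 4, 5 and 6) after 4 days, and small RNA from 2 control and 2 IL-4 libraries after 2 days. The animals' age and sex and the number of animals behind a culture are not given in the sources used here, so p-values for mRNA measure only the spread between these cultures.

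A miRNA is cut in the nucleus and again in the cytoplasm before it is mature. In the nucleus the Microprocessor, the RNase III enzyme DROSHA with its RNA-binding partner DGCR8, releases a hairpin from the primary transcript, and Exportin-5, the product of Xpo5, carries that hairpin to the cytoplasm. There DICER1, with its partner TRBP (encoded by Tarbp2), cuts the hairpin to a duplex, an Argonaute takes up 1 strand, and a GW182 protein such as TNRC6A links the Argonaute to the deadenylases and decapping factors that silence the target mRNA. The enzymes are themselves tied to miRNAs: the Microprocessor cleaves hairpins inside the Dgcr8 mRNA, and let-7, miR-103 and miR-107 are described regulators of Dicer1.

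The miRNAs and sites that connect the 10 genes to the small RNA libraries are shown first, because the later values refer to them. Mature sequences are from RefSeq on GRCm38.p6, 5′ to 3′, with the seed (bases 2 to 8) in capitals.
miR-1306-5p: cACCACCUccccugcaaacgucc
miR-1306-3p: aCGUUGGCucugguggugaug
miR-3618-5p: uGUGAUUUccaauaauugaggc
miR-103-3p: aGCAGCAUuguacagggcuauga
miR-107-3p: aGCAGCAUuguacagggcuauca
let-7f-5p: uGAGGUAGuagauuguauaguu
let-7c-5p: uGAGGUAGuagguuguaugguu
miR-322-5p: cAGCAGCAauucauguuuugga
The miR-1306 hairpin (chr16:18284239-18284317, minus strand) lies in coding exon 2 of Dgcr8, and the miR-3618 hairpin (chr16:18284550-18284637, minus strand) lies in the 5′ UTR part of the same exon. Of the other 9 members, 1 holds an annotated hairpin: Mir693 lies in an intron of Xpo5 (chr17:46231531-46231619, plus strand).

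The seed shared by miR-103 and miR-107 pairs with ATGCTGC, and the annotated 3′ UTRs of 6 of the 10 genes hold that heptamer once each (Dgcr8, Dicer1, Tarbp2, Ago1, Ago3 and Ago4), against 11.2% of the 16308 mouse 3′ UTRs searched. The windows below are read along the mRNA, with the heptamer in capitals, for the Microprocessor and dicing genes.
Dgcr8, chr16:18254038-18254065, minus strand: ttatatgtacagtcATGCTGCaagggtg
Dicer1, chr12:104690163-104690190, minus strand: tgatgcttcatgtaATGCTGCacttagg
Tarbp2, chr15:102523570-102523597, plus strand: ggagtcctgaataaATGCTGCtctttgg
In Tarbp2 the heptamer overlaps the match to the miR-322 seed (TGCTGCT) by 6 bases, and the same overlap occurs in Ago3 and Ago4. The miR-322 heptamer was found in the 3′ UTRs of Xpo5, Tarbp2, Ago1, Ago2, Ago3 and Ago4, against 21.1% of all 3′ UTRs. miR-322 is 1 of the H19X-encoded miRNAs, and the seeds of the others matched fewer members. Matches lay in Ago1 and Ago3 for miR-503 (4.22% of all 3′ UTRs), in Dicer1 and Ago2 for miR-351 (13.6%) and in no member for miR-450a (1.15%). miR-450b matched Dicer1, Ago3 and Ago4 (11.5%), and miR-542-3p matched Ago1, Ago2 and Ago4 (14.3%). The 3′ UTRs of the Argonaute genes are long, each longer than at least 92.5% of those searched, and a longer UTR holds any heptamer more often.

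The let-7 seed pairs with CTACCTC. It was absent from the 3′ UTR of Dicer1, which spans 3851 bases, but occurred 4 times in the Dicer1 coding sequence, the most among the members. Dicer1 also has the longest coding sequence of the 10 (5721 bases), and no background over coding sequences was computed. The windows are shown with the heptamer in capitals because let-7 is a described regulator of Dicer1.
Dicer1 coding position 2605 (heptamer at chr12:104706560-104706566, minus strand): ctactgtgttCTACCTCttaatgttgt
Dicer1 coding position 3611 (chr12:104702805-104702811): gtacaaccaaCTACCTCatatcccatt
Dicer1 coding position 3719 (chr12:104702697-104702703): gctaacacatCTACCTCagatggaagc
Dicer1 coding position 5091 (chr12:104694697-104694703): cgattttggaCTACCTCataaccaagc
Xpo5 held 2 such heptamers in its coding sequence and Ago3 held 1, while Tarbp2 and Ago2 each held 1 in the 3′ UTR, against 9.14% of all 3′ UTRs. A match is a string of letters in the annotation, not a measured binding site. The STAT6 motif TTCNNNNGAA, searched because STAT6 carries the IL-4 signal, was absent from the promoter windows of the 9 members that have one in the RefSeq table (250 bases before to 50 after the start, a motif that reads the same on both strands) and was present in 6.95% of 32851 promoters.

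Each mRNA library held between 28526832 and 29057808 expected counts, estimated by the authors with RSEM, so depth was nearly equal. The 10 most abundant genes took 9.14% to 9.59% of counts in the controls and 13.8% to 15.5% with IL-4. Libraries were therefore scaled by TMM, which sets the bulk of genes level (median log2 fold change 0.00 over all tested genes). Scaling by library totals moved that median to -0.17, and the authors' FPKM, which are per library total and per transcript length, moved it to -0.13 with a pseudocount of 1. All normalised reads below are on the TMM scale. FPKM is used to compare levels between genes and to sum over genes, and where the groups are set side by side in FPKM the values carry that shift.

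Control 3 and IL-4 6 stood apart from the other libraries by transcript length. The medians by transcript length given here are over genes with at least 100 counts on average. Relative to their group mean, transcripts over 8000 bases were lower by a median of 0.17 on the log2 scale in control 3 and 0.33 in IL-4 6, and transcripts up to 1000 bases were higher by 0.12 and 0.27. This touches the members, because 9 of the 10 have transcripts over 4000 bases and Tarbp2, with 1790 bases, is the short one. The fold changes of the members and of the other named mRNAs, and the counts of calls, were therefore also computed with the length trend removed in every library and without both of these libraries, 2 settings chosen after the data were seen. Across the length classes the median log2 fold change fell from 0.14 (up to 1000 bases) to -0.12 (over 8000 bases).

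**Figure D1:**
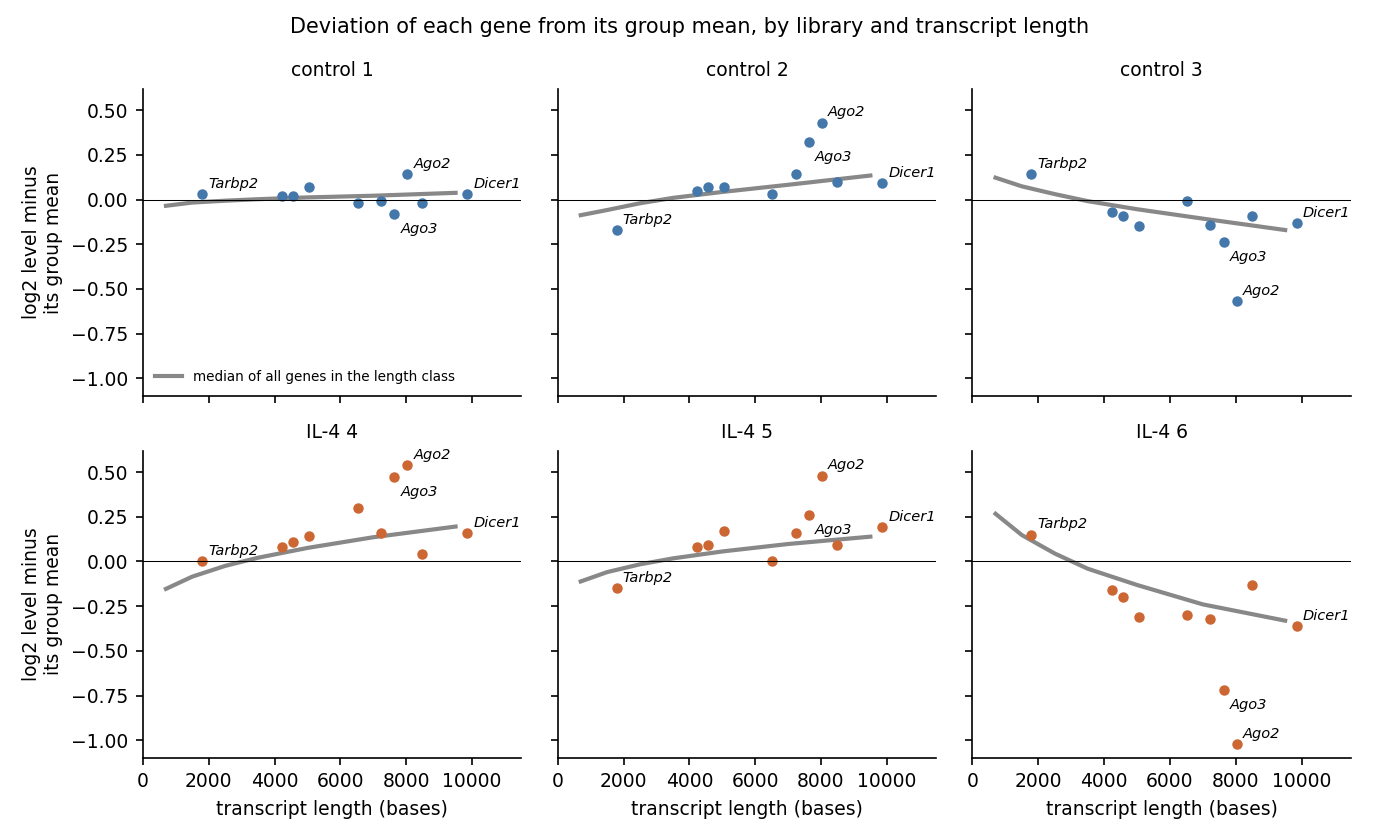
Deviation of each of the 10 genes from its group mean (log2 normalised level, vertical axis) against transcript length in bases (horizontal axis), 1 panel per library. The grey line joins the medians by length class over genes with at least 100 counts on average. In control 3 and IL-4 6 the long members lie below 0 and Tarbp2 above it, and Ago2 and Ago3 lie furthest from 0.

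The culture also held signal of other cells, although CD45-positive cells had been removed. Markers of APs were present (10 of 10 tested, 5 higher and 2 lower with IL-4, summed level 4156 to 4476 FPKM in the controls and 4693 to 5000 FPKM with IL-4). Of 16 macrophage markers none was at 0, 15 were lower with IL-4 and none higher, and their sum was 4599 to 6052 FPKM in the controls and 1763 to 2452 FPKM with IL-4. Of 8 endothelial markers 2 were higher and 3 lower (sum 14.3 to 17.3 FPKM), the lymphocyte markers listed summed to at most 1.25 FPKM with Cd3d and Cd3e unlisted, and of 7 mature adipocyte markers only Fabp4 passed the filter on low counts, and it was higher (sum of the list 32.9 to 78.6 FPKM). In bulk RNA, fewer cells of a type and less RNA per cell cannot be told apart, and the part of the macrophage RNA in the members' values was not tested.

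In control APs the members were ordered by FPKM, a level per transcript length. Xpo5 was highest at 17.9 to 20.6 FPKM, followed by Tnrc6a and Drosha at 14.5 to 17.3 FPKM, whose ranges overlapped. Ago1, Dgcr8, Ago2 and Tarbp2 lay between 6.26 and 12.3 FPKM, each overlapping the next in the order, and Dicer1 followed at 6.93 to 7.93 FPKM. The other two Argonautes were low, with Ago3 at 1.48 to 2.14 FPKM and Ago4 at 1.36 to 1.40 FPKM. With IL-4 the 3 highest (Xpo5, Drosha and Tnrc6a, by median) overlapped one another. Tarbp2 came next at 9.88 to 12.5 FPKM and overlapped Tnrc6a, whose lowest value was 12.3 FPKM. Ago3 and Ago4 again came last and overlapped.

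**Figure D2:**
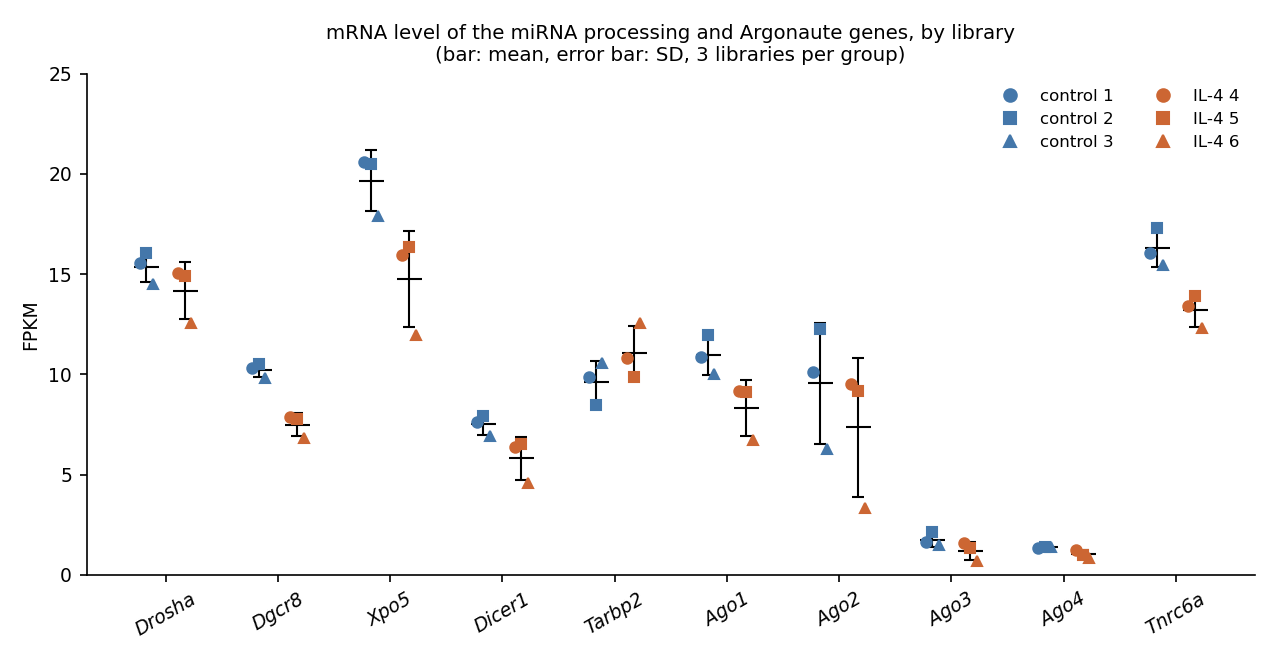
FPKM (vertical axis) of each gene in the 3 control (blue) and 3 IL-4 (orange) libraries, with the mean and SD of each group. Ago3 and Ago4 lie below 2.2 FPKM in every library, Ago2 has the widest spread, and for 6 genes all IL-4 points lie below all control points on this scale.

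Of these mRNAs, 2 passed the test of IL-4 against control. By the edgeR quasi-likelihood test, with p-values adjusted by Benjamini-Hochberg over the 14009 genes, 1 of the 10 was higher (Tarbp2) and 1 lower (Dgcr8), and none passed a log2 fold change of 1. Over all tested genes 19.0% were higher, 18.4% lower and 11.0% past the test with a log2 fold change beyond 1. The members' counts lay below these rates, but with 10 genes the difference was not tested. Without control 3 and IL-4 6, 1 member was higher and 3 were lower, beside 3576 higher and 3520 lower of 14041 genes. Under library totals 0 were higher and 6 lower, beside 1704 and 4963 of 14009. On the TMM scale with all 6 libraries, the IL-4 and control values did not overlap for 2 of the 10 members, against 50.4% of all tested genes. The median log2 fold change of the members was -0.21, with 8 of 10 below 0. Over all tested genes the median was 0.00, and 6963 of 14009 were below 0. That background is not matched for length, and every member but Tarbp2 has a transcript over 4000 bases. Among genes with at least 100 counts on average, the median was -0.06 between 4000 and 6000 bases and -0.11 between 6000 and 8000. Over 8000 bases it was -0.12. The members were not tested against genes of similar length. On the FPKM scale 6 of the 10 had every IL-4 value below every control value, against 43.0% of all genes, and 4 overlapped.

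Drosha, the catalytic subunit of the Microprocessor, measured 1909.7, 1984 and 1764 normalised reads in control 1, 2 and 3, and 2107, 2083 and 1704 in IL-4 4, 5 and 6. The ranges overlapped, with IL-4 6 the lowest library of all and IL-4 4 the highest. The fold change was 1.04-fold (95% interval 0.897 to 1.21, log2 fold change 0.06 ± 0.09 SE), adjusted p = 0.664, and its sign turned to -0.12 under library totals.

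Dgcr8, which encodes the RNA-binding partner that holds the hairpin for DROSHA, fell with IL-4. It measured 1170.1, 1199.5 and 1098 normalised reads in control 1, 2 and 3, and 1011, 1005 and 853 in IL-4 4, 5 and 6. The groups did not overlap: the highest IL-4 library lay below the lowest control. Means were 1156 ± 51.9 in the controls and 956 ± 89.5 with IL-4 (SD, n = 3 each), a change of 0.827-fold (95% interval 0.724 to 0.945, log2 fold change -0.27 ± 0.08 SE) with adjusted p = 0.033. With the length trend removed the log2 fold change was -0.26 (adjusted p = 0.0012), and without control 3 and IL-4 6 it was -0.23 (adjusted p = 0.0023). The call was lost, at log2 fold changes of -0.30, -0.27 and -0.25, without IL-4 5 (adjusted p = 0.057), control 1 (adjusted p = 0.11) or control 2 (adjusted p = 0.12). Its expected counts are not whole numbers, so RSEM shared some of its reads with another gene.

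The 2 Microprocessor genes therefore differed in their calls, but the difference between them was not tested. The hairpins inside Dgcr8 gave a second readout, from the small RNA libraries at 2 days. For the miR-1306-5p strand control 1 and 2 held 240 and 236 reads, and IL-4 1 and 2 held 276 and 238. For the miR-1306-3p strand the same libraries held 21, 32, 21 and 30 reads. Scaled for depth, the groups overlapped for the 5p strand. The 3p strand was at 22.4 and 24.7 with IL-4 and at 26.9 in the lower of the controls, so its groups did not overlap. The share of all miRNAs whose groups of 2 libraries do not overlap was not computed, so this separation has no background. Neither strand passed an unadjusted p under 0.05, at 0.928-fold (95% interval 0.568 to 1.52) for the 5p strand and 0.828-fold (95% interval 0.446 to 1.54) for the 3p strand. The miR-3618-5p strand, from the 5′ UTR hairpin, had 0 and 1 reads in the control libraries against 9 and 10 in the IL-4 libraries. Neither it nor its 3p strand, with 1 read over the 4 libraries, passed the filter on low counts. These libraries held 23790821 to 32061504 mature miRNA reads.

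Xpo5, the exporter, had the highest median FPKM of the members in both groups. It measured 2039.9, 2043 and 1754 normalised reads in control 1, 2 and 3, and 1798, 1842 and 1311 in IL-4 4, 5 and 6. The IL-4 values reached up to 1842, above the lowest control at 1754, and IL-4 6 stood lowest. The ratio of IL-4 to control was 0.848-fold (95% interval 0.687 to 1.05, log2 fold change -0.24 ± 0.13 SE), adjusted p = 0.200. Without control 3 and IL-4 6 it was -0.17 on the log2 scale and passed the test (adjusted p = 0.0083), and with the length trend removed it was -0.23 and did not (adjusted p = 0.063).

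Dicer1, the cytoplasmic RNase III enzyme, measured 2037, 2128 and 1827 normalised reads in control 1, 2 and 3, and 1930.0, 1974 and 1346 in IL-4 4, 5 and 6. IL-4 4 and 5 fell among the controls and IL-4 6 was far below them. The ratio of IL-4 to control was 0.876-fold (95% interval 0.698 to 1.10, log2 fold change -0.19 ± 0.14 SE), adjusted p = 0.336. With the length trend removed the log2 fold change was -0.10 (95% interval -0.191 to -0.001, adjusted p = 0.084).

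Tarbp2, which encodes the double-stranded RNA-binding partner of DICER1, was the only member higher with IL-4 by the test. It measured 460.1, 399 and 494 normalised reads in control 1, 2 and 3, and 581, 525 and 648 in IL-4 4, 5 and 6. Every IL-4 library lay above every control on this scale, while on the FPKM scale IL-4 5 (9.88) fell between control 1 (9.85) and control 3 (10.6). Means were 451 ± 48.2 in the controls and 585 ± 61.7 with IL-4 (SD, n = 3 each), a change of 1.30-fold (95% interval 1.09 to 1.55, log2 fold change 0.37 ± 0.11 SE) with adjusted p = 0.029. Control 3 and IL-4 6, in which short transcripts were high, gave the highest value of each group. The log2 fold change was 0.26 (adjusted p = 0.015) with the length trend removed and 0.36 (adjusted p = 0.0026) without both libraries. The call was lost without control 1 (0.39, adjusted p = 0.080), control 2 (0.29, adjusted p = 0.10) or IL-4 4 (0.39, adjusted p = 0.060), and under library totals (0.20, adjusted p = 0.20).

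Over the 6 mRNA libraries the tested genes whose log2 level most closely followed Tarbp2, the member with the smallest adjusted p, were Clk1 (Pearson r = 0.997), Zkscan14 (Pearson r = 0.996) and Fabp7 (Pearson r = 0.995). These are descriptions over 6 points that share the same libraries, depth and length trend.

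The miRNAs described as regulators of Dicer1 were abundant in the small RNA libraries. The 8 let-7 members measured were within 0.909-fold and 1.08-fold of control by their fitted fold change, with none at an unadjusted p under 0.05. The most abundant, let-7f-5p, had 352368 and 650292 reads in control 1 and 2, against 418889 and 652120 in IL-4 1 and 2, 0.927-fold (95% interval 0.634 to 1.36). let-7c-5p had 274782, 517897, 313195 and 550177 reads in the same order, 0.940-fold (95% interval 0.621 to 1.42).

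miR-103-3p had 48607 and 69638 reads in control 1 and 2, against 91864 and 84149 in IL-4 1 and 2, 1.31-fold (95% interval 0.900 to 1.91). miR-107-3p had 6830 and 12050 reads against 14035 and 15539, 1.39-fold (95% interval 0.958 to 2.00). For both, the IL-4 libraries lay above the control libraries, a separation whose share over all miRNAs was not computed. Neither passed the test (edgeR adjusted p = 0.86 and 0.83). For comparison, 39 of 640 miRNAs (6.09%) had an unadjusted p under 0.05, among them all 6 major strands of the H19X-encoded miRNAs, the study's own subject. Among these strands the seed of miR-322-5p matched the most members, in the 3′ UTRs of 6. miR-322-5p had 57719 and 40177 reads against 156462 and 130498, 2.46-fold (95% interval 1.34 to 4.50, edgeR adjusted p = 0.45). Its adjusted p was the largest of these strands. The others were at 2.03-fold (miR-351-5p) to 3.64-fold (miR-503-5p), with edgeR adjusted p of 0.087 to 0.11.

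The 5 miRNAs that mature without DROSHA or without DICER1 and passed the filter on low counts were measured as well. miR-451a, cut by AGO2 in place of DICER1, had 40 and 41 reads in the control libraries against 43 and 83, 1.29-fold (95% interval 0.706 to 2.35). miR-484 and miR-320-3p, which bypass the Microprocessor, were at 0.929-fold (95% interval 0.654 to 1.32) and 0.934-fold (95% interval 0.673 to 1.30). The mirtrons miR-877-5p and miR-1981-5p were at 1.08-fold (95% interval 0.725 to 1.61) and 0.897-fold (95% interval 0.585 to 1.38). None of the 5 passed an unadjusted p under 0.05, and miR-1224-5p, with 1 read in all 4 libraries, was not tested.

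The 4 Argonautes are the proteins that hold the mature miRNA, and AGO2 is the member that also cuts targets. Ago1, Ago3 and Ago4 lie near one another on the minus strand of chromosome 4 (chr4:126435012-126468583, chr4:126340678-126429542 and chr4:126489541-126533458), and Ago2 lies on chromosome 15 (chr15:73101625-73184947, minus strand). All 4 had fitted log2 fold changes below 0, and none passed the test.

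Ago1 measured 2124, 2357 and 1944 normalised reads in control 1, 2 and 3, and 2038, 2036 and 1454 in IL-4 4, 5 and 6. IL-4 6 was the lowest library and the groups overlapped through IL-4 4 and 5. The ratio of IL-4 to control was 0.860-fold (95% interval 0.692 to 1.07, log2 fold change -0.22 ± 0.14 SE), adjusted p = 0.256, and it passed the test with the length trend removed (-0.16, adjusted p = 0.020) and without control 3 and IL-4 6 (-0.14, adjusted p = 0.044). Its expected counts and those of Ago3 are not whole numbers, so RSEM shared reads between genes there.

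Ago2 varied most between libraries of the same group. It measured 2198, 2674 and 1343 normalised reads in control 1, 2 and 3, and 2352, 2263 and 801 in IL-4 4, 5 and 6. Control 3 and IL-4 6 were low, and the groups overlapped. The SD of Ago2 within groups was 0.72 on the log2 scale, against a median of 0.11 over 11421 genes with at least 100 counts on average, of which 0.131% had a larger one. The deviation of IL-4 6 from its group mean was -1.02, against -0.33 for the median transcript over 8000 bases among those genes. The ratio of IL-4 to control was 0.871-fold (95% interval 0.463 to 1.64, log2 fold change -0.20 ± 0.39 SE), adjusted p = 0.732. Its sign turned to 0.16 without IL-4 6 (adjusted p = 0.57) and to 0.03 without control 2 (adjusted p = 0.97). Without control 3 and IL-4 6 it was -0.08 (95% interval -0.23 to 0.07).

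Ago3 measured 336, 444 and 302 normalised reads in control 1, 2 and 3, and 370.2, 319 and 161 in IL-4 4, 5 and 6. Its SD within groups, 0.49 on the log2 scale, was exceeded by 0.727% of the genes, and IL-4 6 was again the lowest library. The ratio of IL-4 to control was 0.785-fold (95% interval 0.500 to 1.23, log2 fold change -0.35 ± 0.28 SE), adjusted p = 0.374. Ago4 measured 239, 248 and 240.2 normalised reads in control 1, 2 and 3, and 250.4, 203 and 165 in IL-4 4, 5 and 6, with controls that lay within 9 reads of each other and IL-4 4 above all of them. Its ratio of IL-4 to control was 0.851-fold (95% interval 0.674 to 1.07, log2 fold change -0.23 ± 0.15 SE), adjusted p = 0.254, and without IL-4 4 it was -0.39 and passed the test (adjusted p = 0.048).

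The makeup of the Argonaute pool was read as each gene's share of the summed Argonaute FPKM, an mRNA measure with no test. The sum was 24.0, 27.8 and 19.2 FPKM in control 1, 2 and 3 and 21.5, 20.7 and 11.6 FPKM in IL-4 4, 5 and 6. Ago1 held 46.9% ± 4.87 in the controls and 48.2% ± 8.40 with IL-4, and Ago2 held 39.7% ± 6.16 and 39.2% ± 8.99 (SD, n = 3 each). Ago3 held 7.41% ± 0.532 and 6.67% ± 0.627, and Ago4 held 5.97% ± 1.11 and 6.00% ± 1.22. The shares of the 2 groups overlapped for all 4 genes. Within groups the pool was not constant: Ago2 held 42.3% and 44.1% in control 1 and 2 but 32.7% in control 3, and 44.3% and 44.4% in IL-4 4 and 5 but 28.8% in IL-4 6.

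**Figure D3:**
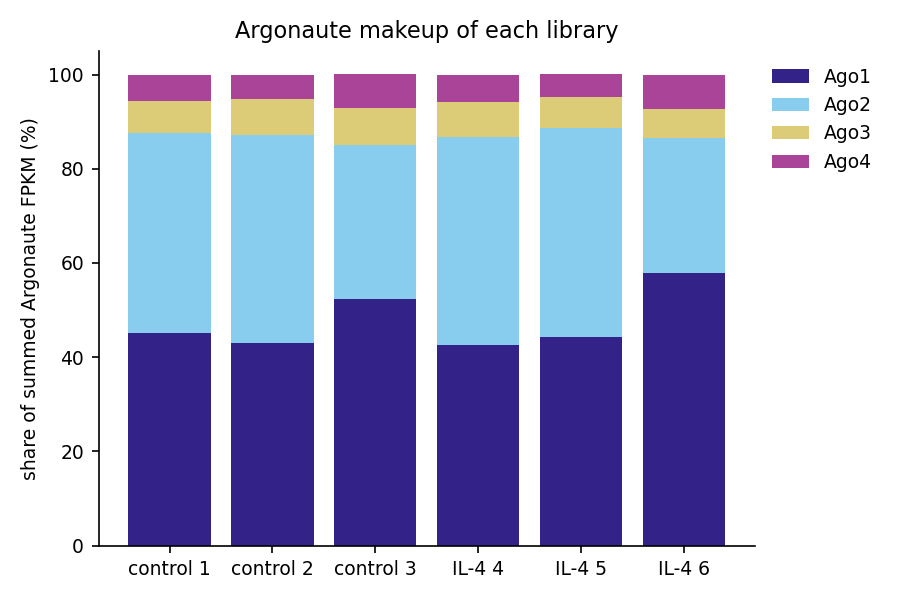
Share of the summed Argonaute FPKM (vertical axis, %) held by Ago1, Ago2, Ago3 and Ago4 in each of the 6 libraries. Ago1 and Ago2 together make up most of every bar, and the Ago2 part is smallest in control 3 (32.7%) and IL-4 6 (28.8%).

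Tnrc6a, which encodes the GW182 scaffold between Argonaute and the deadenylases, measured 3686, 3999 and 3509.5 normalised reads in control 1, 2 and 3, and 3504, 3624 and 3113 in IL-4 4, 5 and 6. IL-4 5 lay above control 3, so the groups overlapped. The ratio of IL-4 to control was 0.915-fold (95% interval 0.807 to 1.04, log2 fold change -0.13 ± 0.08 SE), adjusted p = 0.245. With the length trend removed it was -0.03 (95% interval -0.18 to 0.11).

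**Figure D4:**
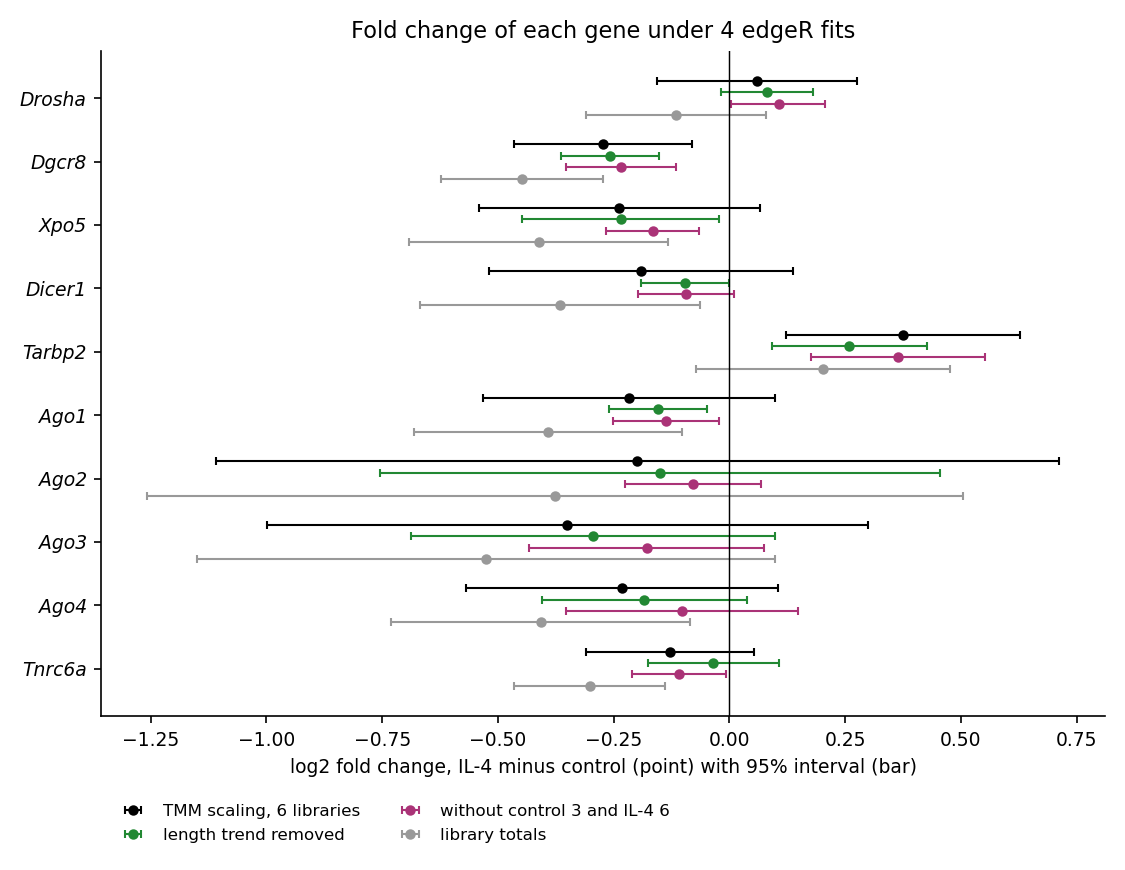
Log2 fold change, IL-4 minus control (horizontal axis), of each gene with its 95% interval under 4 edgeR fits: TMM scaling on 6 libraries (black), length trend removed (green), without control 3 and IL-4 6 (purple) and library totals (grey). Dgcr8 lies below 0 with its whole interval in all 4 fits, Tarbp2 lies above 0 in the first 3, and in the 3 fits on all 6 libraries Ago2 and Ago3 have the widest intervals.

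The other genes of the pathway were described from a list of 67, of which 65 were tested (Lin28a and Lin28b were not). Of the 65, 6 were higher and 20 lower with IL-4, and none passed a log2 fold change of 1. Over all tested genes 19.0% were higher and 18.4% lower, which is the background for these counts and for those of each class below. The median log2 fold change was -0.09, beside 0.00 over all tested genes. The lower count dropped to 11, 7, 9, 10 and 10 without IL-4 4, IL-4 5, control 1, control 2 and control 3 in turn, and the higher count to 2, 3 and 3 without the same 3 controls. In the same fits the lower calls over all genes dropped too, from 2582 to 2184, 2006, 1911, 1963 and 2150. The higher calls over all genes dropped from 2663 to 2017, 2033 and 2279 without the 3 controls. Without IL-4 6 the pathway genes had 21 lower and 7 higher, beside 3014 and 3199 over all genes. Lower calls outnumbered higher ones among the cofactors of the Microprocessor (1 higher and 10 lower of 16, median -0.18) and among the chaperones and turnover factors of Argonaute (0 higher and 5 lower of 10, median -0.13). Export, dicing and precursor turnover genes had 1 higher and 2 lower of 10 (median -0.04), and silencing effectors 4 higher and 3 lower of 29 (median -0.05). The difference between the classes was not tested.

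Around the Microprocessor, Srrt, which encodes the cofactor ARS2, fell most. It measured 2878 to 3112 normalised reads in the controls and 1971 to 2191 with IL-4, 0.696-fold (edgeR adjusted p = 0.00046). Mettl3, the RNA methyltransferase that marks primary miRNAs, was the one cofactor that rose, from 552 to 611 normalised reads in the controls to 659.8 to 706 with IL-4, 1.19-fold (edgeR adjusted p = 0.025). The Mettl3 call did not hold with the length trend removed (log2 fold change 0.16, adjusted p = 0.069), under library totals (0.08), nor without IL-4 4 (0.25), control 1 (0.22) or control 3 (0.24). For Ran, the GTPase that Exportin-5 needs, the values were 8884 to 9539.7 normalised reads in the controls and 6860.0 to 8449 with IL-4, 0.818-fold (edgeR adjusted p = 0.031). The Ran call was lost on leaving out any one of IL-4 4, IL-4 5 and the 3 controls (log2 fold changes -0.22 to -0.31).

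Zc3h12a, which encodes the endonuclease Regnase-1 (MCPIP1) that cleaves precursor hairpins, rose most among the pathway genes. It measured 239 to 256 normalised reads in the controls and 373 to 392 with IL-4, 1.56-fold (edgeR adjusted p = 0.00038). Hspa8, the constitutive HSP70 chaperone that helps load Argonaute, fell most in its class, 0.827-fold (edgeR adjusted p = 0.0062). Among the silencing effectors 2 LIM-domain genes moved in opposite directions. Limd1, an adaptor between Argonaute and the cap complex, rose from 2039 to 2101 normalised reads to 2665 to 3022, 1.40-fold (edgeR adjusted p = 0.00074). Ajuba, its relative, fell from 1252 to 1397 normalised reads to 635 to 792, 0.535-fold (edgeR adjusted p = 0.00016), the furthest any of the 65 moved. For all of these genes the IL-4 and control ranges of normalised reads did not overlap. They were picked by their adjusted p and fold change, and 50.4% of all tested genes did not overlap either. On the FPKM scale the ranges of Mettl3 overlapped (10.34 to 11.35 in the controls and 10.83 to 11.94 with IL-4).

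**Figure D5:**
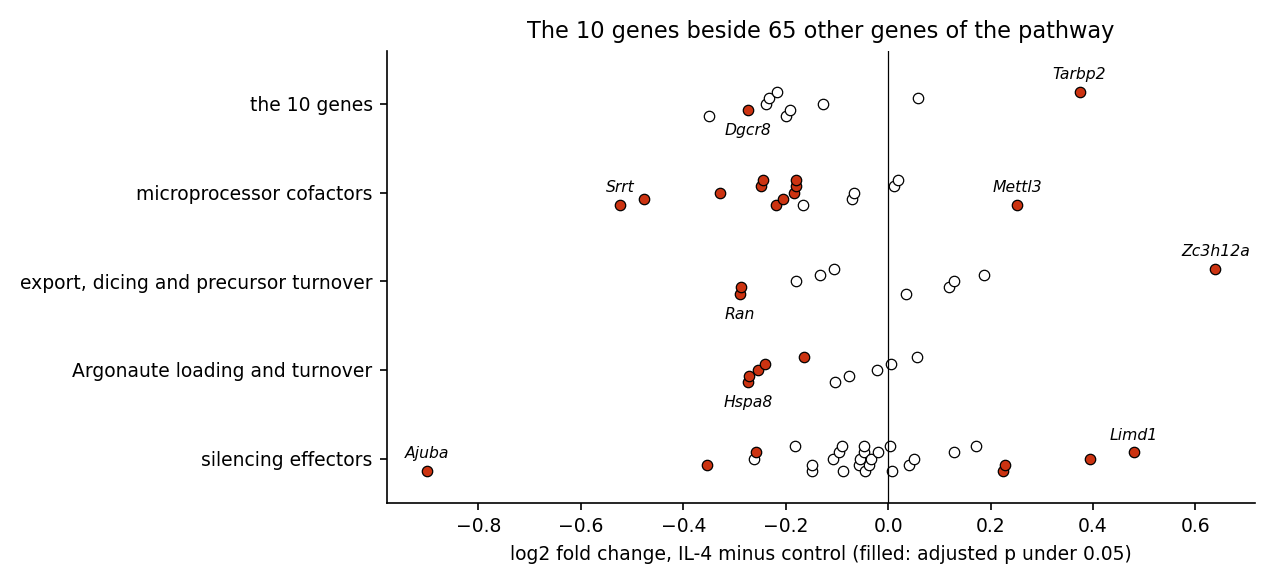
Log2 fold change, IL-4 minus control (horizontal axis), of the 10 genes and of 65 other pathway genes in 4 classes; filled points passed the adjusted p threshold of 0.05. The 10 genes span -0.35 (Ago3, not called) to 0.37 (Tarbp2, called). The 29 silencing effectors span more, from Ajuba at -0.90 to Limd1 at 0.48. The 10 Argonaute loading and turnover genes span less, from Hspa8 at -0.27 to Ipo8 at 0.06.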

How the data were processed

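Per the file headers and the study's methods, mRNA reads were filtered with SOAPnuke and mapped to the mouse genome (mm10), and the authors deposited RSEM expected counts, from Bowtie2 alignments, and FPKM per gene and library. For small RNA the authors deposited read counts per mature miRNA (miRBase), the file listing a count for each precursor, of which the largest was used. Genes were matched by symbol, and 1 row that names no gene (0.00016% of counts) was left out. A gene without a row in a library was set to 0.

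Expected counts were rounded to whole numbers. Genes were filtered (filterByExpr, minimum count 10, minimum total 15), scaled by TMM and tested with edgeR 4.0.16 (quasi-likelihood, R 4.3.3), IL-4 against control, over 14009 genes, with Benjamini-Hochberg adjustment and a threshold of 0.05. The same test was run on 640 miRNAs. SE and 95% intervals come from the same fits. Normalised reads are counts scaled to the mean effective library size. The alternatives were DESeq2 1.42.0, limma 3.58.1 on log2-transformed FPKM with a pseudocount of 1 or 0.1, other scalings, no filter, and fits without each library in turn. A fit with a spline of level on transcript length (4 degrees of freedom) removed in each library, and a fit without control 3 and IL-4 6, were added after the data were seen. On simulated counts with 200 of 14009 genes changed, the mRNA test recovered 75.8% of changes of 0.6 on the log2 scale and 83.6% of changes of 1. For small RNA, with 60 of 640 changed, it recovered 5% and 31.6%. Of the mRNA calls 7.03% fell on unchanged genes. These mRNA counts held no length trend, and a larger share of genes was called in the real data. Changes under 0.6 were not simulated, so recovery at the size of the members' changes, all smaller than that, is not known.

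Each mRNA library held 28526832 to 29057808 expected counts, and each small RNA library 23790821 to 32061504 reads. These figures cover counting error only.

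The 10 genes, the lists of other pathway genes, marker genes and miRNAs, and the tests were chosen with earlier results of these data known. Named genes were all 10 members. Of the other pathway genes, the largest rise and the largest fall of each class past the threshold were named. For the member with the smallest adjusted p, the 3 genes most correlated with it were named, together with the listed miRNAs that passed the filter. Seed matches, hairpins and sequences came from RefSeq on GRCm38.p6, the patched form of mm10.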

Additional observations from a re-analysis of the deposited data

How the results depend on the processing

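Among the 10 genes, library totals gave 0 higher and 6 lower, limma 0 higher with 5 lower on log2(FPKM + 1), 4 lower on log2(FPKM + 0.1) and 3 lower with no filter, and upper-quartile scaling 0 higher. Removing the length trend gave 2 lower and leaving out control 3 and IL-4 6 gave 3. Single libraries left out gave 0 to 1 higher and 0 to 2 lower. The all-gene calls were 3576 higher and 3520 lower of 14041 without control 3 and IL-4 6. They were 2017 to 3199 higher and 1911 to 3014 lower with single libraries left out. Over all genes, higher and lower calls were 1704 and 4963 with library totals, 1694 and 4904 by limma on log2(FPKM + 0.1), 1697 and 4916 on log2(FPKM + 1), and 1735 and 4702 with no filter there, and 4203 were lower with the length trend removed. For the other pathway genes these 4 settings gave 2 higher each and 38, 35, 35 and 32 lower, and single libraries left out gave 2 to 7 higher and 7 to 21 lower.

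For Dgcr8 and Tarbp2 the log2 fold change was -0.31 to -0.19 and 0.29 to 0.46 with single libraries left out. Tarbp2 lost its call under upper-quartile scaling (0.35), library totals (0.20) and limma (0.18, 0.20 with the lower pseudocount, and 0.18 with no filter). Calls appeared under library totals for Xpo5 (-0.41), Dicer1 (-0.37), Ago1 (-0.39), Ago4 (-0.41) and Tnrc6a (-0.30). Under limma they appeared on log2(FPKM + 1) for Xpo5 (-0.40, and -0.40 with no filter), Ago1 (-0.36), Ago4 (-0.23) and Tnrc6a (-0.28, and -0.28 with no filter), and on log2(FPKM + 0.1) for Xpo5 (-0.42), Ago1 (-0.40) and Tnrc6a (-0.30). Without control 3 and IL-4 6, Xpo5 (-0.17) and Ago1 (-0.14) were called, and with the length trend removed Ago1 (-0.16). Drosha changed sign under library totals (-0.12) and limma (-0.12, -0.11 and -0.11). With single libraries left out Ago2 ranged from -0.43 to 0.16 and Ago4 from -0.39 to -0.09. The cause of these changes was not tested, but the settings without TMM move the median of all genes by up to -0.17.

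No paired analysis was possible for mRNA because the control and IL-4 libraries carry different numbers. For small RNA the shared numbers do not by themselves pair the cultures (2 pairs, correlation of deviations 0.46 over 640 miRNAs). With the replicate block, 105 miRNAs had an unadjusted p under 0.05 in place of 39, and 67 did with no filter, and 35 to 45 with single libraries left out. Under the block miR-103-3p (log2 fold change 0.37, unadjusted p = 0.017) and miR-107-3p (log2 fold change 0.48, unadjusted p = 0.0028) passed an unadjusted p under 0.05. Neither passed the adjusted threshold there (edgeR adjusted p = 0.15 and 0.053). The 6 H19X-encoded strands, none of which passed the adjusted threshold without the block, all passed it with the block (miR-322-5p adjusted p = 9.87e-15, the others at most 4.37e-09). Small log2 fold changes changed sign. That of let-7a-5p turned to 0.14 by limma and 0.037 with no filter, and that of let-7b-5p to 0.004 with no filter. For let-7d-5p it turned to -0.11 by limma and -0.023 when summed over precursors. For let-7f-5p it turned to 0.058 by limma and for let-7g-5p to -0.01 when summed. With single libraries left out, log2 fold changes were -0.18 to 0.16 for let-7a-5p, -0.26 to 0.091 for let-7b-5p, -0.35 to 0.19 for let-7c-5p, -0.028 to 0.060 for let-7d-5p, -0.27 to 0.058 for let-7e-5p, -0.29 to 0.15 for let-7f-5p, -0.076 to 0.19 for let-7g-5p, -0.052 to 0.35 for let-7i-5p, -0.44 to 0.16 for miR-1306-5p, -0.30 to 0.051 for miR-1981-5p, -0.175 to 0.005 for miR-320-3p and -0.25 to 0.10 for miR-484.

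In the fit on all 6 libraries the intervals of Ago2 and Ago3 span from 0.463-fold to 1.64-fold and from 0.500-fold to 1.23-fold, and changes within them were not detectable in that fit.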
